A study of Rattus norvegicus with 8 samples.

Results

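The CpG-dense tiles that stayed unmethylated in every sample were 20725 of the 32980 CpG-dense tiles of the rat autosomes, or 62.8%. A tile is a window of 200 bp of the rat genome rn6, and it was called dense where each of the 8 samples had calls on at least 10 of its CpGs. The methylation level of a tile is its number of C calls divided by its number of C and T calls. A dense tile was taken as a member where this level was under 2% in all 3 controls and all 5 urothelial carcinomas (UCs), so that the levels of every sample chose the members and are given as a description, without a test. Members were 3.20% of the 648019 tiles on chromosomes 1 to 20 that had a CpG in every sample.

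The samples came from F344/DuCrj rats that were 10 weeks old at the start and drank water with 0 ppm (3 controls) or 200 ppm (5 UCs) dimethylarsinic acid (DMAV), an organic metabolite of arsenic, for 104 weeks. The study states that the rats were male, that the tumors were larger than a set diameter and that they were not examined histologically, whereas the labels call them bladder tumor. The controls are labelled as bladder urothelium and described in the methods as bladder tissue, so that they may hold cells other than urothelium. It is not stated whether the 5 UCs came from 5 rats, and p-values therefore measure the spread between these samples. Reduced representation bisulfite sequencing (RRBS) was used, in which restriction enzymes enrich for CpG-rich DNA and bisulfite turns unmethylated cytosine into T, so that a methylated CpG is read as C.

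Most CpGs of a mammalian genome are methylated. CpG islands, dense clusters of CpGs that often lie at gene starts, are the main exception. Proteins with a CXXC domain, such as Kdm2b and Cxxc1, bind unmethylated CpGs and bring chromatin modifiers to islands, and TET enzymes oxidize methylcytosine. In cancer, part of the islands gain methylation, often at genes of developmental transcription factors that are marked by Polycomb proteins in normal cells, while the islands of housekeeping genes usually do not.

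A total of 51434938 to 73836223 calls were deposited per sample, and members took 20.2% to 25.7% of them. UC 1 and UC 2 resembled each other, as did UC 4 and UC 5. The share of the members' calls on chromosome 20 was 0.723 and 0.737 times the control mean in UC 1 and UC 2, and 0.888 times in UC 3. On chromosome 11 it was 1.79 and 1.66 times the control mean in UC 4 and UC 5. On chromosome 5 it was 0.825, 0.805 and 0.820 times the control mean in UC 1, UC 2 and UC 3. Members on these chromosomes were under 2% in all samples by the rule, whatever their coverage.

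To show what members look like, RefSeq promoter sequences, each reaching from 250 bp before to 50 bp after a gene start, were placed on the CpG positions of the files by the spacing of their CpGs. Of the 13885 sequences with at least 10 CpGs, 7594 matched a single place without an unmatched CpG in the files, and 7587 of these (99.9%) fell on the chromosome that RefSeq gives. Of 136 placed genes that the study lists as hypermethylated, 134 fell within 1000 bp of the start site implied by the study's list. The sequences are those of RefSeq assembly GRCr8 and the positions are those of rn6 in the deposited files.

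The promoter in which the most CpGs were matched is shown for each of 5 gene groups, among genes whose dense promoter tiles were all members. Rpl11 encodes a protein of the large ribosomal subunit, Psmb2 a subunit of the proteasome, Tbp the TATA-binding protein, Kdm2b the CXXC protein named above and Foxk2 a forkhead transcription factor. Capitals mark the CpGs counted in every sample.
Rpl11, chr5:154393974-154394273, minus strand: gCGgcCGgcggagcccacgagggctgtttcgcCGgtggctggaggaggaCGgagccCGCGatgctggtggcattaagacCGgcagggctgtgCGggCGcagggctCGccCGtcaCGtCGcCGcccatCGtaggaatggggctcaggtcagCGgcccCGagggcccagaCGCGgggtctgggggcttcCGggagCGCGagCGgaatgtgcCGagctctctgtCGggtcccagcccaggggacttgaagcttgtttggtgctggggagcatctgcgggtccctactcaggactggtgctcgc
Psmb2, chr5:144701754-144702053, plus strand: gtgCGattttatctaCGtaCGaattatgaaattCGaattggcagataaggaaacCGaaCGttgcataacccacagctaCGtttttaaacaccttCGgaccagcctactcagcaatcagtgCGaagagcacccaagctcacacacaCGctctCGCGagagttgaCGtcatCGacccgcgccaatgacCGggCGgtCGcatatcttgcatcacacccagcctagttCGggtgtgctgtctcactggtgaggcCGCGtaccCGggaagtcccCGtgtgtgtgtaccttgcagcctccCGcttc
Tbp, chr1:57491393-57491692, plus strand: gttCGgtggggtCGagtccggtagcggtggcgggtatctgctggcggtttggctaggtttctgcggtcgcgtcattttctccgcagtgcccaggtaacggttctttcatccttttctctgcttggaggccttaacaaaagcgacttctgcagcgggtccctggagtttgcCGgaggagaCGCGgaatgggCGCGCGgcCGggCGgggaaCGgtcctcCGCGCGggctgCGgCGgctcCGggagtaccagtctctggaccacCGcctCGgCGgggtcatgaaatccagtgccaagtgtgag
Kdm2b, chr12:39021750-39022049, plus strand: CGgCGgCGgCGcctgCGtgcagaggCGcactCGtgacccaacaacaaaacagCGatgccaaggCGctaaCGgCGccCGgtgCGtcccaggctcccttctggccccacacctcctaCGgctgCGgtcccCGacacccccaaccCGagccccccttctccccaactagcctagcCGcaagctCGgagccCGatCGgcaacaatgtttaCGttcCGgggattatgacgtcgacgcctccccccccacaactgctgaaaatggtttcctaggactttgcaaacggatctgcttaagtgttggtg
Foxk2, chr10:110468634-110468933, plus strand: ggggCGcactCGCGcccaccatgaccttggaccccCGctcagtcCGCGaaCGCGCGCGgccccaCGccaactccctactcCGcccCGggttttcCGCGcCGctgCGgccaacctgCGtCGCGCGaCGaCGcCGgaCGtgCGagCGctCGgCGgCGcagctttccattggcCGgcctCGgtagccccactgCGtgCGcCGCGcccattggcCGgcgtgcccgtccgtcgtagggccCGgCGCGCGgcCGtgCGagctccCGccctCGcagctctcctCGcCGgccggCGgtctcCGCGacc

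The promoter of Foxk2 held 55 CpGs, of which 50 were counted in every sample. Its 2 dense tiles together were at 0.271%, 0.224% and 0.224% in the 3 controls and at 0.195%, 0.174%, 0.365%, 0.367% and 0.297% in UC 1 to UC 5, on 1785 to 3569 calls. The levels of the UCs fell on both sides of those of the controls. The 2 dense tiles of Psmb2 were at 0.136%, 0% and 0.129% in the controls and at 0.0957% to 0.206% in the UCs, on 529 to 1045 calls. At the dense tile of Rpl11 the controls were at 0.171%, 0.350% and 0.469% and the UCs at 0% to 1.03%. The 2 dense tiles of Tbp were at 0.0896% to 0.316% in the controls and at 0.200% to 0.437% in the UCs. Kdm2b came closest to the limit, with 1.97% in one of its 2 tiles in a UC, and its tiles together were at 0.231% to 0.317% in the controls and 0.132% to 1.25% in the UCs.

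Over all members, the share of methylated calls was 0.415%, 0.382% and 0.359% in the 3 controls and 0.373%, 0.360%, 0.456%, 0.396% and 0.404% in UC 1 to UC 5. The groups overlapped, with a mean of 0.385% ± 0.0279 (SD, n = 3 controls) against 0.398% ± 0.0370 (SD, n = 5 UCs). The 95% Wilson intervals of these shares were narrow, for example 0.452% to 0.460% in UC 3, which had the highest share. They cover counting error only, since CpGs on the same read are not independent calls. Incomplete bisulfite conversion and methylation cannot be told apart at this level. The difference of group means of a single member ranged from -1.28 to 1.35 points, with a median of 0.0157 points. In 68.1% of members the highest of the 8 levels was under 1%, and 61 members had no methylated call in any sample.

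Of the 24579 dense tiles that were under 2% in every control, 84.3% were members and 3854 (15.7%) were at 2% or more in at least 1 UC. These 3854 tiles are called control-low tiles here. Their median level was 0.675% to 0.901% in the controls and 2.21% to 2.76% in the UCs, and 231 of them reached 20% in a UC. The mean level of control-low tiles was 4.79%, 4.68%, 4.41% and 4.12% in UC 1, UC 2, UC 4 and UC 5 and 2.94% in UC 3. In a single sample, 25716 to 26992 dense tiles were under 2% in the controls and 23612 to 24068 in the UCs.

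**Figure D1:**
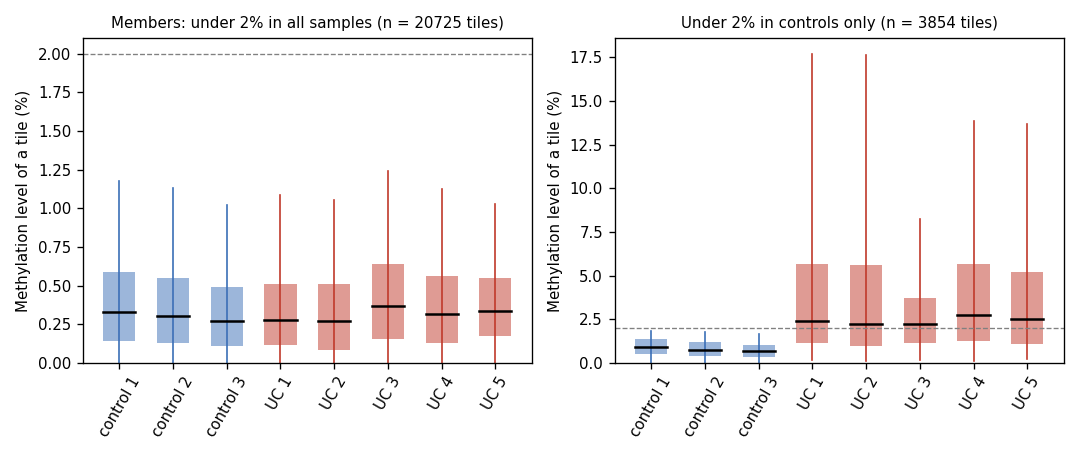
Methylation level of a tile (%, y axis) in each sample (x axis) for members (left) and control-low tiles (right). Black lines are medians over tiles, boxes the middle 50% and thin lines the 5th to 95th percentile, and the dashed line is the limit of 2%. Medians of members lie between 0.270% and 0.366% in all samples, whereas those of control-low tiles are under 1% in each control and over 2% in each UC. Control-low tiles were chosen as under 2% in controls and at 2% or more in 1 or more UCs. The gap between their groups is therefore not independent of the choice.

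Members were among the denser of the dense tiles. The number of CpGs in the sample with fewest was 16 in the median member (quartiles 13 and 21, range 10 to 42), 15 in the median control-low tile and 13 in the median of the dense tiles that were not members. Members made up 47.2% of the tiles with 10 to 12 CpGs, 62.7% of those with 13 to 15, 70.4% of those with 16 to 18, 73.2% of those with 19 to 21, 76.1% of those with 22 to 25 and 80.4% of those with 26 to 42. The share thus rose over the whole range of density. Among tiles under 2% in every control it ran from 81.7% to 87.1% over the same classes.

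The 3 tiles with 42 CpGs were chr8:72284401-72284600, chr14:79445801-79446000 and chr17:6786001-6786200. The first was at 0.131% to 0.398% in the 8 samples, on 1737 to 3333 calls. The second holds parts of the placed promoters of Ccdc96 and of Tada2b, a subunit of histone acetyltransferase complexes, and was at 0.0720% to 1.01%. The third was at 0.109% to 0.390%. No placed promoter overlapped the first or the third.

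The members were spread over all 20 autosomes. They made up 56.1% of the dense tiles of chromosome 12 and 58.6% of those of chromosome 18, the lowest shares, and 65.9% of those of chromosome 13, the highest. Chromosome 1 had the most members, 2368, and chromosome 18 the fewest, 539. Among tiles under 2% in every control, members were 81.9% on chromosome 4 and 89.1% on chromosome 19, the extremes.

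**Figure D2:**
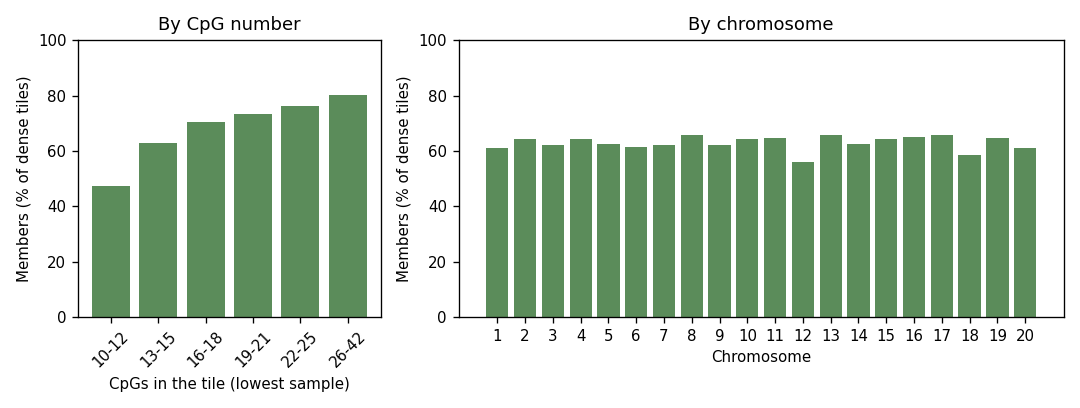
Members as a percentage of dense tiles (y axis, from 0) by the number of CpGs in the tile in the sample with fewest (left) and by chromosome (right). The share rises from 47.2% at 10 to 12 CpGs to 80.4% at 26 to 42 CpGs and lies between 56.1% and 65.9% on every chromosome.

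Membership also moved with depth, and the part of depth in the differences of density was not tested. Members made up 47.7% of the dense tiles with 30 to 232 calls in the lowest sample, 58.7% of those with 233 to 361, 68.7% of those with 362 to 537 and 76.1% of those with more. The number of calls in the lowest sample was 406 in the median member, 366 in the median control-low tile and 296 in the median of the dense tiles that were not members. A member with 30 calls, the lowest number, and no methylated call has an upper Wilson bound of 11.4%, and 189 calls are needed for a bound under 2%. With the upper bound under 2% in every sample as the limit, 9447 members (45.6%) remained. The number of reads per CpG was 32.7 to 46.3 in the controls and 30.8 to 44.4 in the UCs.

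Depth relative to all dense tiles was not used by the rule and was compared between groups. Reads per CpG in members, divided by reads per CpG in all dense tiles, averaged 1.01 in both groups, with an SD of 0.00918 over 3 controls and 0.00515 over 5 UCs. The UCs differed by -0.000512, less than either SD (two-sided exact permutation test, p = 0.946). The sign of this value turned with the median over tiles (0.00437), without chromosomes 1, 5, 11 and 20 (0.00422), when control 3 was left out (0.00432) and when UC 4 was left out (0.000424), with exact p-values of 0.304 to 1.

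A C-to-T sequence variant is read as an unmethylated CpG, but leaves A in place of G on the opposite strand. The share of A among the opposite-strand calls was 0.0698% to 0.0764% in members and 0.177% to 0.193% in the other dense tiles. The share of G was higher in members in 8 of 8 samples, by 0.112 points (exact paired permutation test over samples, two-sided, p = 0.00781, the smallest that 8 samples allow). The same tiles enter every sample, so that this test covers the spread between samples and not that between tiles.

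Many members lay side by side. They formed 10468 stretches of adjacent members, of which 4863 were a single tile, and 76.5% of members lay in stretches of 2 or more. The same share was not counted for all dense tiles, so that it is not known whether adjacency is a trait of the members. There were 450 stretches of 5 or more tiles. The longest, chr10:90262801-90265000, covered 11 tiles and 201 CpGs and reached the placed promoter of Ubtf, a transcription factor of ribosomal RNA genes. Its level was 0.559%, 0.499% and 0.356% in the controls and 0.449%, 0.608%, 0.557%, 0.465% and 0.476% in UC 1 to UC 5, on 5011 to 8423 calls. Of the 4 named stretches of 10 tiles, chr12:23150601-23152600 reached the promoter of Cux1, a homeobox factor, and chr13:25965801-25967800 that of Zcchc2. A further stretch, chr19:48195401-48197400, reached the promoter of Maf, a leucine zipper transcription factor, and chr1:124814801-124816800 overlapped no placed promoter. In these 4 stretches the level was between 0.159% and 0.698% in every sample.

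The distance to the nearest dense tile with a level of 20% or more in any UC was measured from tile start to tile start. Its median was 146800 bp over the members (quartiles 46600 and 376000 bp), and only 219 members (1.06%) had such a tile within 1000 bp. Of the 3623 control-low tiles under 20% in every UC, 513 (14.2%) had one within 1000 bp, and their median distance was 90400 bp. To dense tiles that had 20% or more in a UC but less in every control, the median distances were 600000 bp for members and 364200 bp for control-low tiles. The levels of the UCs enter both the rule and the distance, so that no test was made. The members farthest from a methylated dense tile were 3 tiles on chromosome 5 that included chr5:86696601-86696800 at the promoter of Megf9, at 7441800 bp.

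**Figure D3:**
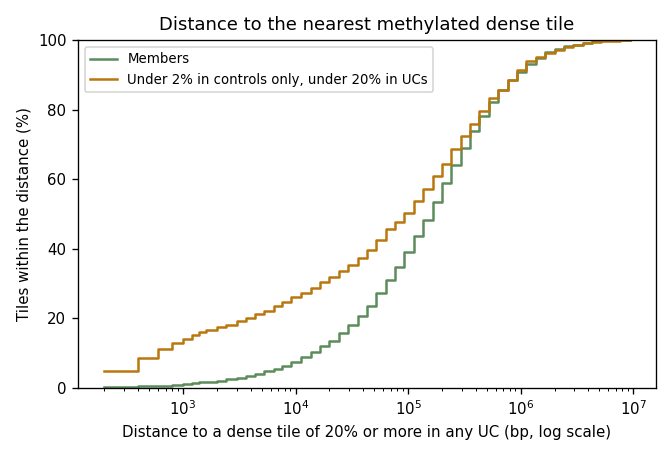
Percentage of tiles (y axis) that lie within a given distance (x axis, bp, log scale) of the nearest dense tile with 20% or more in any UC, for members and for control-low tiles under 20% in every UC. The curves are apart at short distances, where 1.06% of members and 14.2% of control-low tiles lie within 1000 bp.

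In 31 members the methylated dense tile was the next tile. The 5 with the most methylated neighbor lay beside the placed promoter of Hnrnpa3, which encodes an RNA-binding protein, at those of Lyset and Moap1, on both sides of a tile of Tpt1, the translationally controlled tumor protein, and on chromosome 8 with no placed promoter. Beside Hnrnpa3, the member chr3:62481401-62481600 was at 0% to 0.417% in all samples. Its neighbor chr3:62481201-62481400, which holds part of the promoter, was at 41.8%, 46.9% and 54.9% in the controls and at 68.5%, 49.7%, 65.7%, 59.8% and 72.5% in UC 1 to UC 5. The neighbor was thus methylated in the controls too, and UC 2 lay among them.

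At Tpt1 a single partly methylated tile lay between 2 members. The level of chr15:57891601-57891800 was 34.1%, 22.1% and 30.2% in the controls and 37.0%, 33.0%, 24.6%, 26.1% and 28.3% in UC 1 to UC 5, on 1092 to 1918 calls, and the groups overlapped. The members on either side were at 0.810% or less in every sample. The placed promoter is shown because the change falls within it: its first 171 bases lie in the member and the others in the partly methylated tile. Capitals mark the CpGs counted in every sample.
Tpt1, chr15:57891430-57891729, plus strand: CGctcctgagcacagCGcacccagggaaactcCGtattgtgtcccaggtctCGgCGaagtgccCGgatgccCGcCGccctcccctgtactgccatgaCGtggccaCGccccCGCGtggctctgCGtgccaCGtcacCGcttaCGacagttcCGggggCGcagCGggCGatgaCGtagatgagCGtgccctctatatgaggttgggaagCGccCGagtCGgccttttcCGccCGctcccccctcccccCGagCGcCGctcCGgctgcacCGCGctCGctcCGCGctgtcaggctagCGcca

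At Lyset and Moap1, by contrast, the neighbor was under 2% in the controls. The tile chr6:126622201-126622400 was at 1.74%, 1.61% and 0% in the controls and at 12.9%, 11.4%, 2.67%, 40.0% and 7.27% in UC 1 to UC 5, on 30 to 115 calls. The member beside it, chr6:126622401-126622600, was at 0.562% or less in every sample on 580 to 890 calls.

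Members also lay beside a small part of the promoter regions that the study lists as hypermethylated. The list was chosen on these samples, so that the levels of its regions are not independent evidence. Of 240 listed regions on the autosomes, 16 (6.67%) had a member within 1000 bp. The same share was not counted for promoters outside the list. It is therefore not known whether nearness to members, or its lack, is a trait of the list. Eif5 encodes a translation initiation factor. Its listed region, chr6:136003007-136003138, was at 0.556%, 1.01% and 0.763% in the controls and at 10.5%, 9.42%, 5.28%, 16.5% and 12.05% in UC 1 to UC 5, on 329 to 608 calls. The member chr6:136002601-136002800, 207 bp away, was at 0% to 0.962% in all 8 samples. At Tbc1d10b, a Rab GTPase-activating protein, the listed region chr1:198652648-198652684 was at 0.864% to 2.90% in the controls. It was at 1.46% in UC 3 and at 12.9% to 20.3% in the other UCs, whereas the member 117 bp away was at 0.606% or less in every sample. At Tuba1b, an alpha-tubulin, the listed region was at 12.5% to 25% in the controls and 33.3% to 61.3% in the UCs on only 16 to 62 calls, and the member 103 bp away was at 0.538% or less. One listed region, that of Prrx2, overlapped a member, and its level rested on 21 to 71 calls. It was at 8.33% to 21.7% in the controls and 14.3% to 51.4% in the UCs, so that the groups overlapped. The other 6 of the 10 nearest were those of Fbxw9, Tpst1, Npr2, Cacnb1, Nr2f2 and Samd14. Each had a member 36 to 275 bp away that was at 1.14% or less in every sample. The region of Fbxw9 itself had no calls in control 3, UC 1, UC 3 and UC 4. Those of Npr2 and Nr2f2 rested on only 29 to 77 and 21 to 52 calls.

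The limit of 2% cut through a continuous range of levels. Just inside it, chr10:39109401-39109600 at the promoter of Irf1, an interferon-regulated transcription factor, was at 1.998% in UC 1 and at 0.454% or less in the other samples. The next members were at 1.997% in UC 4 (chr13:101789201-101789400) and in UC 3 (chr13:69474401-69474600). Just outside it, chr1:128604001-128604200 in UC 4, chr2:178389801-178390000 in UC 3 and chr2:230162201-230162400 in control 1 were at 2%.

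The levels of the DNA around the members do not enter the rule, but neighboring DNA shares levels with the tiles that the rule chose in controls and UCs. Group differences in the mean levels of this DNA are therefore given as a description, without a test. Single tiles were tested further below, with the same limit. Flank tiles were defined as tiles with 3 to 9 CpGs in every sample within 5 tiles (1000 bp) of a member, and there were 14816 of them. Tiles next to a member (tile 1) had a mean level of 0.949% ± 0.0548 over 3 controls and 0.915% ± 0.0439 over 5 UCs (SD). The level rose with distance in every sample, and tile 5 averaged 32.04% ± 0.448 over the controls and 29.5% ± 0.886 over the UCs. For all 213183 tiles with 3 to 9 CpGs, wherever they lay, the mean was 65.6% ± 0.224 for controls against 65.9% ± 1.51 for UCs (two-sided exact permutation test, p = 0.732).

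Controls and UCs overlapped in tiles 1 to 3 around members and parted farther out. In tile 5, 1000 bp from a member, the level was 32.1%, 32.5% and 31.6% in the 3 controls. It was 30.4%, 29.9%, 30.1%, 28.6% and 28.5% in UC 1 to UC 5. All UCs lay below all controls there, in tile 4 and in tiles 6 to 10. The UC mean differed from the control mean by -0.0334, -0.00964, -0.613, -1.91 and -2.55 points in tiles 1 to 5 and by -2.05 points in tiles 6 to 10. Over all flank tiles together the mean was 6.63% ± 0.142 for controls against 6.21% ± 0.238 for UCs, or -0.425 points. This value was smaller in size with CpGs of 10 or more reads (-0.165), with summed calls (-0.156) and with dense flank tiles included (-0.0899).

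The difference turned when no UC level chose the tiles, a setting added after seeing the data. Around all dense tiles under 2% in every control, 17594 flank tiles averaged 7.17% ± 0.169 over the 3 controls and 7.80% ± 0.499 over the 5 UCs, a value of 0.628 points. The levels were 7.32%, 7.20% and 6.99% in the controls and 8.43%, 8.22%, 7.30%, 7.61% and 7.43% in UC 1 to UC 5, with UC 3 just below the highest control. In tile 1 the UCs differed by 0.669 points, with all UCs above all controls, and in tile 5 by -0.406 points, with the groups overlapping. Farther out the values were -0.00266 points in tile 4 and -0.964 points in tiles 6 to 10. The sign over all flank tiles thus differed between the choices of tiles. The added choice rests on low levels in the controls alone, which neighboring DNA shares. It is therefore not free of selection either, and the part of each choice was not tested.

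**Figure D4:**
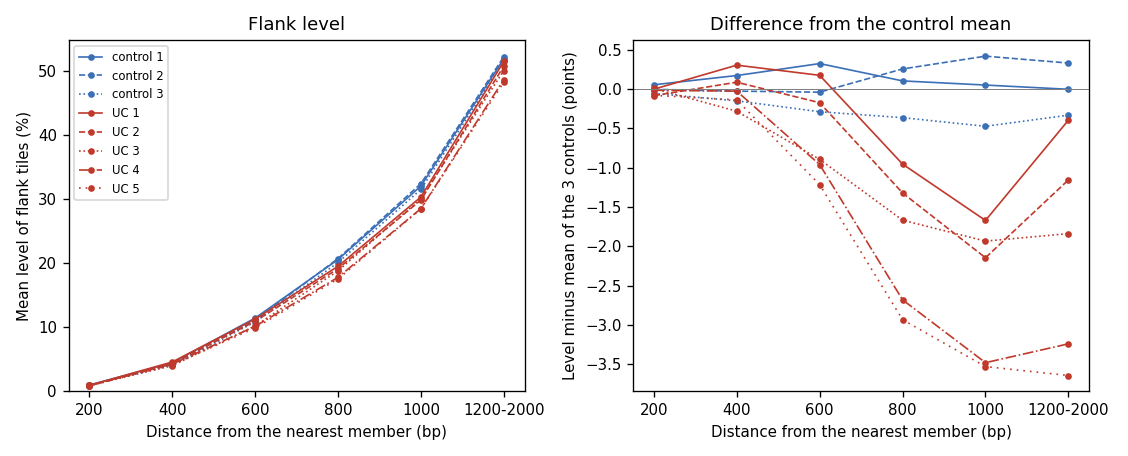
Mean level of flank tiles (left, %) and its difference from the mean of the 3 controls (right, points) by distance from the nearest member (x axis, bp), with 1 line per sample. All samples rise from about 1% beside the members, and in the right panel the 5 UCs lie below the 3 controls at 800 and 1000 bp around these tiles, which UC levels helped to choose.

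Single flank tiles were tested with a quasi-binomial model with dispersion moderated by limma, fitted to all 253671 tiles with at least 3 CpGs in every sample. A tile was called where the Benjamini-Hochberg adjusted p-value was under 0.05 and the group means differed by over 10 points. Of all tiles, 9.41% were called higher in the UCs and 7.28% lower. Of the 14816 flank tiles, 305 (2.06%) were called higher and 523 (3.53%) lower, each below the share over all tiles. Around all dense tiles under 2% in every control, 682 (3.88%) were called higher and 559 (3.18%) lower, so that the calls then leaned to higher. Among the 7578 tiles next to a member only 10 were called higher and 13 lower, whereas in tile 5, 7.87% were called higher and 14.4% lower. A tile low in all samples cannot be called lower by over 10 points, and 65.6% of the tiles next to a member were themselves under 2% in every sample. Higher and lower calls dropped to 161 and 319 when control 1 was left out, to 159 and 307 for control 2, and to 139 and 305 for control 3. Calls over all tiles, both directions together, fell as well, from 42342 to 24158, 23192 and 21315.

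The called tiles next to a member were looked at singly, and those given here were named after their values were seen. The rule used UC levels that neighboring tiles share, so that their adjusted p-values are not independent of the choice of members. The tile chr19:37225801-37226000, with 6 CpGs, was at 12.8%, 11.04% and 13.9% in the controls and at 57.5%, 51.0%, 30.7%, 50.8% and 39.4% in UC 1 to UC 5, higher by 33.3 points (adjusted p = 0.00467, quasi-binomial model with limma). The member beside it was at 0.482% or less in every sample. The tile chr6:26797401-26797600, with 3 CpGs, was lower in the UCs, with 44.3%, 44.1% and 45.6% in the controls and 5.56%, 6.03%, 18.98%, 4.55% and 1.18% in UC 1 to UC 5 (adjusted p = 0.00732, same model). The member beside it was at 1% or less. Near the promoter of Polr3k, a subunit of RNA polymerase III, the tile chr3:177374401-177374600 was at 4% to 8.77% in the controls and at 61.4%, 53.6%, 6.38%, 31.0% and 22% in UC 1 to UC 5 (adjusted p = 0.0428, same model). There UC 3 lay within the range of the controls.

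The flanks of members were compared with those of control-low tiles, leaving out tiles within 1000 bp of both kinds. There were 13272 flank tiles of members and 2778 of control-low tiles. In the controls, whose dense tiles were under 2% in both kinds, the levels were 6.82%, 6.75% and 6.54% around members and 10.4%, 10.1% and 9.73% around control-low tiles, a mean difference of -3.35 points in the same direction in 3 of 3 controls. In the UCs they were 5.72% to 6.24% around members and 13.2% to 18.6% around control-low tiles. The levels of the UCs chose between the kinds and neighboring DNA shares them, so that the difference in the UCs is largely set by the rule and no test was made. The control-low tiles themselves also had higher levels than members in the controls, with the medians given above.

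The genes at members were then described by groups. A promoter was placed on at least 1 dense tile for 5952 genes. All dense promoter tiles were members in 4698 of them (78.9%), some in 327 and none in 927. Members overlapping a placed promoter numbered 6861 (33.1%), against 781 control-low tiles (20.3%). Promoters that could not be placed are not counted, so that the shares of tiles at a promoter are lower bounds.

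Housekeeping groups were above the 78.9% of all genes, which is given without a test and rests on few placed genes. Among genes whose dense promoter tiles were under 2% in every control, the groups were closer. There, 29 of 31 genes of ribosomal proteins had only members, against 4698 of all 5290. Among 33 genes of ribosomal proteins, 29 (87.9%) had only members. The exceptions were Rpl9 (highest level 2.41% in a UC), Rps27a (2.22% in 1 of 2 tiles), Rps2, with 14.5% in a control and 14.9% in a UC, and Rpl39l1, with 86.9% and 95.4%. Rpl3 and Rpl35a had no methylated call in the controls in their dense tile and at most 0.602% and 0.943% in a UC. All 11 placed genes of proteasome subunits had only members, with a highest UC level between 0.366% (Psmb2) and 1.54% (Psmb5). Of 10 ubiquitous genes, Tbp and Sdha, a subunit of mitochondrial complex II, were placed, and both had only members. Among the genes of DNA methylation, Kdm2b, Cxxc1 and Tet3, which encodes a methylcytosine oxidase, were placed of 9, and all had only members. Of 13 tumor suppressor genes, Brca1 was the only one placed, with 0.345% or less in the UCs and 0.580% or less in the controls.

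Genes of developmental transcription factors were below it. Of 38 placed genes of the Hox, Pax, Sox, Fox, Lhx, Tbx and Nkx families, 9 (23.7%) had only members, 2 had some and 27 had none. The highest level in a UC had a median of 10.8% over these genes, against 0.866% over all 5952, and reached 20% in 10 of the 38 (26.3%), against 3.76% of all. In 21 of the 38 a dense promoter tile was already at 2% or more in a control, against 662 of all 5952. The share of 23.7% is thus set in part by the levels of the controls. The 10 genes that reached 20% in a UC were all among these 21. Of them, Foxr1, Sox30, Hoxd12 and Tbx1 were over 20% in a control too, and the others were not. Foxd3 and Lhx8, for example, were at no more than 2.10% and 2.31% in the controls. Among the developmental genes under 2% in every control, the highest UC level was 11.3% (Nkx1-1). Of the 17 developmental genes under 2% in every control, 9 had only members, against 4698 of all 5290 such genes. The 9 with only members were Foxc1, Foxd2, Foxj2, Foxj3, Foxk2, Foxo1, Foxq1, Sox12 and Sox21. Foxo1, an effector of insulin signalling that is expressed in many tissues, was at 0.482% or less in the controls and 0.569% or less in the UCs. No placed Hoxd gene had a member. Hoxd13 was at 0.735% to 1.52% in the controls and at 6.93%, 6.26%, 1.26%, 3.804% and 2.03% in UC 1 to UC 5, so that UC 3 lay within the controls. Hoxd3 was at 7.65% to 13.9% in the controls and at 67.0%, 63.7%, 22.5%, 10.7% and 13.8% in UC 1 to UC 5, so that UC 4 and UC 5 lay within the controls. Hoxd12 was at 35.1% to 41.4% in the controls and at 89.0%, 84.8%, 48.5%, 31.8% and 27.8% in UC 1 to UC 5, so that UC 4 and UC 5 lay below every control. Of the Hox genes, placed promoters on dense tiles were found for Hoxd genes only.

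The promoter of Nkx1-1, a homeobox factor, is shown as the contrast, because it had the highest UC level among the developmental genes that were under 2% in every control and had no member. Capitals mark the CpGs counted in every sample.
Nkx1-1, chr14:82603421-82603720, plus strand: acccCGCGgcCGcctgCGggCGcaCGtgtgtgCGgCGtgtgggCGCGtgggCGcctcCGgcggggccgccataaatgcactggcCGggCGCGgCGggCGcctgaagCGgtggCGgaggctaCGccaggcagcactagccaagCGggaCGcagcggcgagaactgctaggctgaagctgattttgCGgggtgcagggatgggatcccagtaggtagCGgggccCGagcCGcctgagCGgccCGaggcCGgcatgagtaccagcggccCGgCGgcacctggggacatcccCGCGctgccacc

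Its 2 dense tiles together were at 1.08%, 1.17% and 1.16% in the controls and at 4.63%, 4.04%, 4.97%, 9.45% and 6.98% in UC 1 to UC 5, on 965 to 1887 calls. The sequence held 38 CpGs and 74.3% G and C, which lies between Psmb2 (25 CpGs and 54.3%) and Foxk2 (55 CpGs and 77.3%), both under 2% in every sample.

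**Figure D5:**
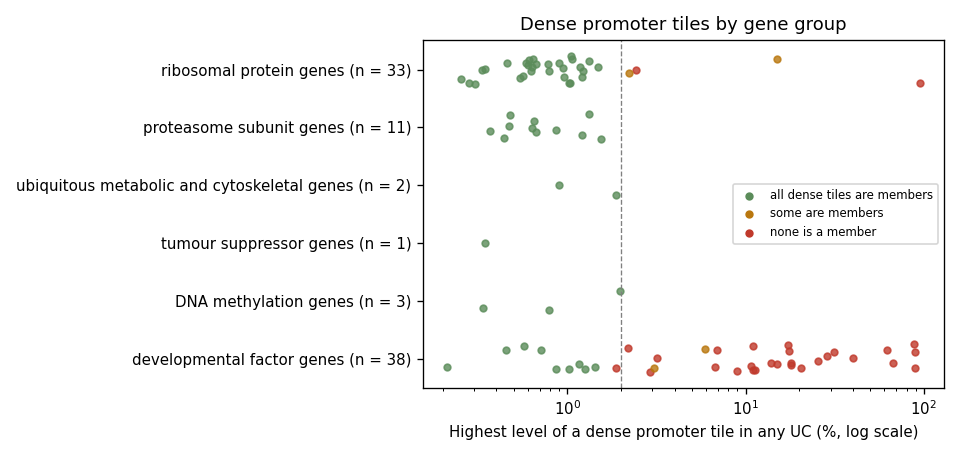
Highest level of a dense promoter tile in any UC (x axis, %, log scale) for each placed gene, by gene group (y axis). Each point is a gene, colored by whether all, some or none of its dense promoter tiles are members, and the dashed line is 2%. All 11 proteasome genes and 29 of 33 ribosomal protein genes lie left of the line, whereas 27 of 38 developmental genes have no member.

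The placed promoters differed in sequence features. The rule did not use the motifs or the share of G and C, but it set a lowest number of CpGs for a tile. The median number of CpGs in the 300 bases was 27 in the 4698 promoters with only members, 24 in the 410 with no member that were under 2% in every control and 23 in the 517 with no member and 2% or more in a control. The median share of G and C was 65.3%, 66.7% and 64.7%. The letters of 6 motifs were searched on both strands. CCGGAAG, the core of sites of ETS family factors, was found in 25.4% of the promoters with only members and in 9.02% and 9.09% of the other kinds. Over all 5952 promoters placed on a dense tile, of which 4698 had only members, it was found in 22.2%. It was found in 9.22% of all RefSeq promoters, which are poorer in CpGs, with a median of 7. The palindromic NRF1 element, given by its name only, was found in 2.64%, 0.244% and 0.580%, and in 0.932% of all; the 2 lower shares rest on 1 and 3 promoters. CCAAT was found in 35.6%, 31.7% and 33.7%, and in 37.7% of all. GGGCGG, the GC box, was found in 76.2%, 77.1% and 67.7%, and in 34.9% of all. TGACGTCA, the cAMP response element, was found in 3.94%, 2.44% and 3.09%, and in 1.91% of all, and TATAAA in 3.87%, 3.66% and 5.80%, and in 14.3% of all. The first of these motifs holds the site CCGG at which the enzyme MspI cuts, and a match is not a bound site. Over the 5952 promoters placed on a dense tile, the NRF1 element was found in 2.23%, CCAAT in 34.9% and GGGCGG in 75.7%. In the same promoters TGACGTCA was found in 3.73% and TATAAA in 3.97%. The shares are given without a test.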

How the data were processed

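RRBS was carried out on 3 controls and 5 UCs. The authors trimmed the reads, mapped them with RRBSMAP to rn6, discarded fragments with several alignments and collapsed PCR copies by their barcodes. Each row of the deposited files is a CpG, its strands merged, with the counts of C calls, of C and T calls and of opposite-strand G and G and A calls. The deposited effective count is an expected count corrected by the authors for base variants, and served as an alternative. The deposited ratio is a fraction and was not used. No CpG had fewer than 3 reads.

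Groups and replicate numbers were taken from the sample titles. Calls were summed over tiles of 200 bp with Python 3.11.15, numpy 2.4.6, pandas 2.3.3 and scipy 1.17.1. Group means of a single value were tested by exact permutation (56 divisions of the samples) and paired values by sign flips (256 in all). Tiles were tested with limma 3.58.1 in R 4.3.3, after a check on simulated calls, and figures were drawn with matplotlib 3.10.9. An rn6 genome was not used here. Promoters were placed by CpG spacing, a step chosen after seeing the data, as were the motifs. Regions were named by rule: the longest stretches, most CpGs, nearest and farthest, next to listed regions and nearest the limit. Planned permutation tests of flank levels are not reported, because the rule uses UC levels that neighboring tiles share. The members, lists and tests were chosen with earlier results of these data known.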

Additional observations from a re-analysis of the deposited data

Results flagged for a closer look

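A total of 16 measures of the 5 UCs were checked for a sample far from the others. One exceeded Dixon's limit, where chance gives 0.8: reads per CpG in members relative to all dense tiles were 1.016 in UC 1, while UC 2 to UC 5 ranged from 1.003 to 1.006.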

How the results depend on the processing

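The number of members, 20725, was 14108 with a limit of 1%, 24171 with 5%, 16155 with CpGs of 10 or more reads, 20721 with the effective count, 19806 with the mean of CpG levels, 20686 with a grid shifted by 100 bp and 20910 to 21382 with a sample left out. It was 12518 with 15 or more CpGs and 9447 with the upper Wilson bound under 2%, both of which allow fewer tiles by construction. The median distance of 146800 bp was 142600 to 146800 bp with a sample left out, 190000 bp to tiles of 50% or more, 600000 bp to tiles under 20% in the controls and 792500 bp with 15 or more CpGs, where fewer tiles count as dense. The flank difference around members kept its sign in the planned settings, at -0.542 to -0.329 points with a sample left out, -0.165 with CpGs of 10 or more reads, -0.709 within 10 tiles, -0.0899 with dense flank tiles included and -0.156 with summed calls. It was 0.628, the opposite sign, around all dense tiles under 2% in every control, a setting added after seeing the data, where 682 flank tiles were called higher and 559 lower. At tile 5 it was -2.94 to -2.22 points with a sample left out and -0.406 in the added setting. Averaging UC 1 with UC 2 and UC 4 with UC 5 gave -0.427. The difference in the share of G was 0.111 to 0.117 points with a sample left out (exact paired permutation p = 0.0156, the smallest that 7 samples allow). The difference in relative depth was 0.00437 with medians, 0.00422 without chromosomes 1, 5, 11 and 20, -0.0601 against all tiles, and -0.00515 to 0.00432 with a sample left out. The flank tiles called higher and lower were 290 and 509 with limma on M values, 199 and 320 with a difference over 20 points, and 590 and 968 within 10 tiles. With a sample left out they were 139 to 422 and 305 to 624. Calls over all tiles, both directions together, were 39228 with M values, 28964 with a difference over 20 points and 21315 to 55551 with a sample left out. Controls and UCs share the numbers 1 to 3, but deviations of equal-numbered samples correlated at only -0.0130 to 0.0409 across tiles, so that the numbers pair nothing. With a replicate block, tested on the samples numbered 1 to 3 alone and thus without UC 4 and UC 5, 0 flank tiles were called higher and 0 lower. Over all tiles 0 were called too, so that this is not particular to flanks. By the same quasi-binomial model, with 2 residual degrees of freedom, 3893 flank tiles had an unadjusted p under 0.05. By limma on M values 2449 had an unadjusted p under 0.05.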

Other observations

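Single CpGs within members were mostly low, which the rule largely sets, because it keeps the level of the whole tile low in every sample. Of 290201 CpGs that had 10 or more reads throughout, 287247 (98.98%) were under 10% in all 8 samples and 111976 had no methylated call in any. In 204 the level was 20% or more in at least 1 sample. In 0 CpGs was it 20% or more in every UC and less in every control, and in 0 was it 20% or more in every sample. The rule leaves little room for such CpGs, so that these counts are a description of the members and not a separate finding.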
